A study of Mus musculus with 14 samples.

Results

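The genes described here carry out or control the synthesis of fatty acids and triglycerides in liver. They form a fixed list of 30 genes, and each was read from the probe set annotated to that gene alone, with the highest mean over the 14 arrays where a gene had several. Of the 30 genes 29 could be read in this way, out of 19938 genes with a probe set of their own on the array, and the remaining gene, Acsl3, shared its only named probe set with another gene. The list was compared between the livers of 7 high-fat fed mice given mesenchymal stem cells (MSCs, group HFM) and 7 high-fat fed mice given saline (group HFS), with 1 mouse per array.

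Both groups were male C57BL/6 mice of 24 weeks of age that had eaten the high-fat diet for 20 weeks, and livers were taken 24 h after the injection. No group on a standard diet enters the comparison, so both groups carry the effect of the diet. The cells were human, came from the bone marrow of a single donor and were given into the tail vein of mice with a working immune system, and the vehicle is called saline in the labels and PBS in part of the study's methods. The comparison asks whether hepatic gene expression had shifted 1 day after the cells were given, and was made in mice that were housed with food and water freely available, with no fast before the livers were taken named in the sources used here.

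In hepatocytes, glucose carbon that reaches the mitochondria is exported as citrate and cleaved to acetyl-CoA, which acetyl-CoA carboxylase and fatty acid synthase turn into palmitate. Elongases and desaturases then lengthen and unsaturate the chain, acyl-CoA synthetases activate it, and a series of acyltransferases and phosphatases attach it to glycerol to give triglyceride. The transcription factors SREBP and ChREBP, encoded by Srebf1 and Mlxipl, are known to turn on many of these genes when insulin and glucose are high, and the pathway is known for its activity in fatty liver.

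Promoter sequences of 3 members are shown, namely Fasn and, with it, Acly and Elovl6, each of which followed Fasn closely from mouse to mouse. The correlation of Acly with Elovl6 was not computed. Acaca and Srebf1 followed Fasn about as closely as Acly did and are not shown. Each sequence shown is the stretch of 250 bases before the transcription start in RefSeq (GRCm38.p6), written 5′ to 3′ on the strand of the gene. Capitals mark the letters CCAAT (the CCAAT box) or GGGCGG (the Sp1 box), on either strand, so that a match on the other strand reads ATTGG or CCGCCC. The Fasn window, chr11:120824548-120824797 on the minus strand, held 3 CCAAT matches, of which a pair overlap, and 0 Sp1 boxes. The Acly window, chr11:100528001-100528250 on the minus strand, held 4 Sp1 boxes and 0 CCAAT matches. The Elovl6 window, chr3:129532136-129532385 on the plus strand, held neither.
Fasn: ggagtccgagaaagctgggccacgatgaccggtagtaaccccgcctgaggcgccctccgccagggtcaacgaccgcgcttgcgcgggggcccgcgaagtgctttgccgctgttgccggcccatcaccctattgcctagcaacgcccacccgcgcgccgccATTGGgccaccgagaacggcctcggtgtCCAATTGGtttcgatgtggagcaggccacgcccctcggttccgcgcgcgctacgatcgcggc
Acly: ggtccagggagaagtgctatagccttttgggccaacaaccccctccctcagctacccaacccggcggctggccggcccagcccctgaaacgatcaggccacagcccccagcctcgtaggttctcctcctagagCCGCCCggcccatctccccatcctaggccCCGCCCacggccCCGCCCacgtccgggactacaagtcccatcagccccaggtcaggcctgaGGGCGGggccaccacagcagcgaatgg
Elovl6: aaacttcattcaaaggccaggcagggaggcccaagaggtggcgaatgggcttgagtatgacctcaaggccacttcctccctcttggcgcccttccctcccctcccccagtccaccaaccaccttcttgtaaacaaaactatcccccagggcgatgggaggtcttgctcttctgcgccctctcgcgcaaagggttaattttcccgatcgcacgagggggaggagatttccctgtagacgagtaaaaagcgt

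RefSeq windows were found for 24 of the 30 members, 34 windows in all because some genes have several starts. CCAAT stood in 17 of the 34 windows, or 50%, against 33.8% of the 32851 windows of the genome table. GGGCGG likewise stood in 17 windows, or 50%, against 32.7% of all windows. The E-box CACGTG, the letters bound by several helix-loop-helix factors, was found in 4 member windows (11.8% against 6.02%), those of Elovl5, Lpin2, Mlxipl and Slc25a1. The core of the sterol regulatory element, TCACNCCAC, was found in 1 member window (2.94% against 1.05%), that of Mlxipl. The 4 motifs were searched on both strands, matches of different motifs may overlap, and a match describes only the letters in the window.

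The values are log2 expression per probe set, so that a difference of 1 is a doubling, and levels of different genes on this scale cannot be ranked against each other. The array medians lay between 4.24 and 4.35. The correlation of array pairs was 0.979 at the lowest and 0.995 at the highest, with a median of 0.991 both within and between the groups. The 10 of 11 hepatocyte markers that could be read (among them Alb, Apoa1 and Ttr) had a mean level per mouse of 11.68 to 11.97 in the HFM group and 11.78 to 11.90 in the HFS group. Between the groups 0 of them passed an unadjusted limma p of 0.05, where 6.47% of all tested probe sets did. By the exact permutation test Alb alone was under 0.05 (p = 0.00816). Its log2 difference was -0.09 (standard error 0.05, limma unadjusted p = 0.098), and 7 of 7 HFM mice lay below the HFS mean. In whole liver, fewer cells of a type and less RNA per cell cannot be told apart.

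No member differed between HFM and HFS livers by any threshold. With limma, 0 of 29 members passed an unadjusted p under 0.05, where 6.47% of the 23410 tested probe sets did, and 0 passed the filter of the study's methods (p under 0.01 with at least 1.2-fold), where 0.696% did. The study's methods also name a Bonferroni correction and used Partek, so the filter here is their p and fold limits applied to unadjusted limma results. None of the 29 passed an adjusted p under 0.05, where 0% of all probe sets did, and the smallest adjusted p among the members was 0.793. In 0 members did the groups lie apart without overlap, against 0.0555% of all probe sets. Of the 29 differences, 25 were above 0, where 51.4% of all tested probe sets were, and 4 were below 0. The 4 were Pklr, Scd2, Dgat1 and Pnpla3. The median difference over the members was 0.08 on the log2 scale against 0.00 over all tested probe sets, with members from -0.15 to 0.51. The count above 0 was 22 of 29 after quantile normalization and 26 after median centring. It fell to 16 of 29 when 1 saline mouse, HFS2, was left out.

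**Figure D1:**
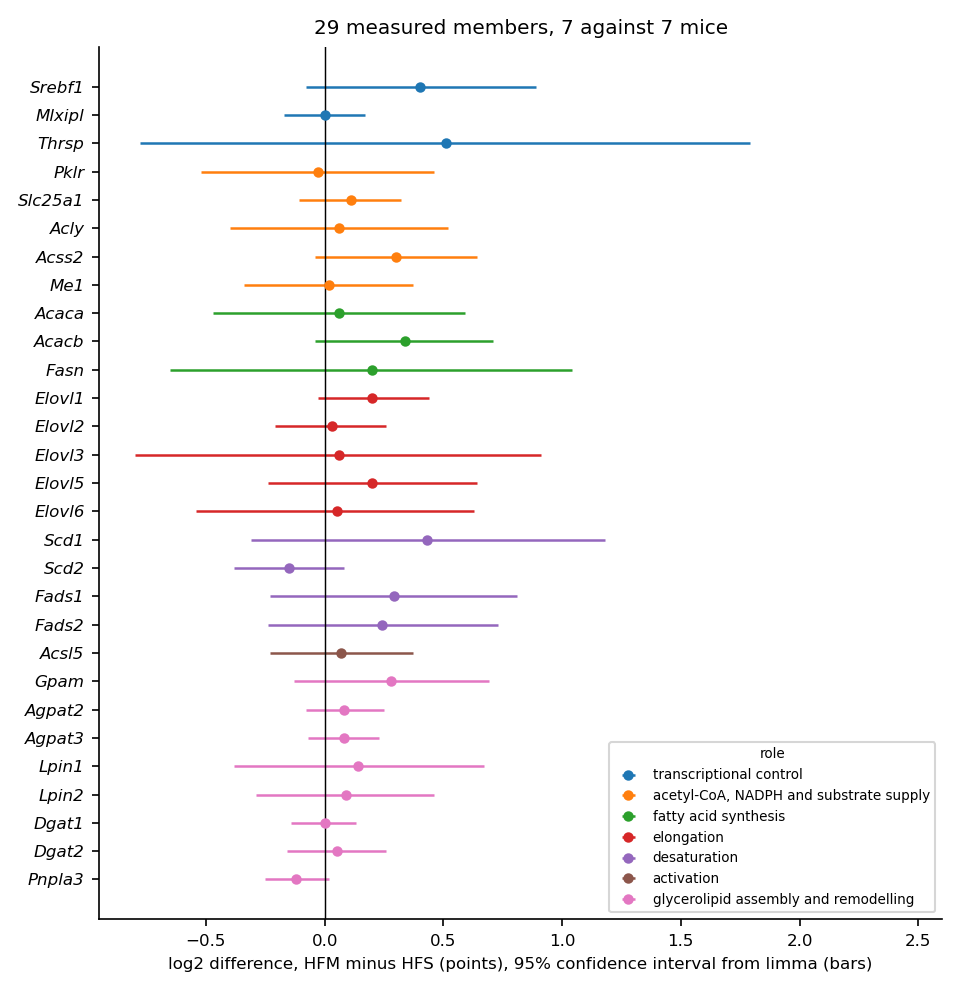
Difference between groups (x axis, log2, HFM minus HFS) for each of the 29 members (y axis, ordered and coloured by role), where points are the limma estimates and bars their 95% confidence intervals, with 7 mice per group. Every interval includes 0, and the intervals are narrow for Mlxipl (-0.17 to 0.17) and Dgat1 (-0.14 to 0.13) and wide for Thrsp (-0.78 to 1.79).

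Among the members grouped here under transcriptional control, the differences were 0.40 for Srebf1, 0.00 for Mlxipl and 0.51 for Thrsp. Srebf1 encodes the sterol regulatory element-binding protein that drives fatty acid synthesis genes. It ran from 7.51 to 8.74 in HFM mice with a median of 8.32, and from 6.68 to 8.50 in HFS mice with a median of 8.12. The groups overlapped, although 6 of the 7 HFM values exceeded the HFS mean. The means were 8.29 ± 0.41 (SD, n = 7) and 7.88 ± 0.62 (n = 7), a fold of 1.32 with a 95% interval of 0.944 to 1.85 (limma adjusted p = 0.802, two-sided exact permutation p = 0.182).

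Mlxipl, which encodes the glucose-responsive factor ChREBP, was almost level between the groups. It ran from 8.72 to 9.19 in HFM mice (median 9.07) and from 8.78 to 9.21 in HFS mice (median 8.96). Both means were 8.98, with SDs of 0.17 and 0.13, and the interval of the fold, 0.890 to 1.12, bounds the difference more closely than for most members (adjusted p = 1 by limma, exact permutation p = 0.998). Thrsp encodes Spot14, a small protein of lipogenic tissue that answers to thyroid hormone and carbohydrate. Its values split widely within both groups. HFM5 stood at 6.49 while the other HFM mice ran from 8.62 to 9.96, and HFS2 and HFS4 stood at 5.88 and 6.08 while the other HFS mice ran from 9.02 to 9.50. The interval of its fold was accordingly wide, 0.584 to 3.45 around 1.42 (limma adjusted p = 0.901).

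The 5 members that supply carbon and reducing power to the pathway had a median difference of 0.06. Acly, which cleaves citrate to cytosolic acetyl-CoA, ran from 7.01 to 8.35 in HFM mice (median 7.47) and from 6.53 to 8.26 in HFS mice (median 7.49). The ranges overlapped over most of their length and the means were 7.58 ± 0.42 and 7.52 ± 0.57 (n = 7 each), a log2 difference of 0.06 (standard error 0.22, limma adjusted p = 0.971, exact permutation p = 0.829). Acss2, which makes acetyl-CoA from acetate, averaged 6.83 ± 0.45 in the HFM and 6.53 ± 0.25 in the HFS group, a difference of 0.30 (standard error 0.16, limma unadjusted p = 0.0834, exact permutation p = 0.154, adjusted p = 0.795). For Slc25a1, the mitochondrial citrate carrier, the difference was 0.11 (standard error 0.10). Me1, the malic enzyme that gives NADPH, differed by 0.02 (standard error 0.17) and Pklr, the liver pyruvate kinase, by -0.03 (standard error 0.23).

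Of the 3 members that build palmitate, Fasn and Acaca had wide and overlapping ranges. Fasn encodes fatty acid synthase. HFM mice ran from 7.01 to 9.26 with a median of 8.43, and HFS mice from 6.03 to 9.18 with a median of 8.52, so that the HFS median lay above that of HFM although the means, 8.30 ± 0.70 and 8.10 ± 1.11 (n = 7 each), had the opposite order. HFM5 and HFS2 were the lowest of their groups, and HFM3 and HFS3 the highest. The fold was 1.15 with an interval of 0.637 to 2.06 (limma adjusted p = 0.946, exact permutation p = 0.712).

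Acaca encodes the cytosolic acetyl-CoA carboxylase, which commits acetyl-CoA to fatty acid synthesis. It ran from 6.49 to 7.94 in HFM mice (median 7.18) and from 6.01 to 7.92 in HFS mice (median 7.41), with the same 4 mice at the ends of the ranges as for Fasn. The means were 7.23 ± 0.48 and 7.17 ± 0.65, a difference of 0.06 (standard error 0.25, limma adjusted p = 0.974, exact permutation p = 0.849). A second Acaca probe set differed by -0.26 (standard error 0.27, limma adjusted p = 0.882), so the probe sets of this gene disagreed in sign and neither passed. Acacb, the carboxylase of the mitochondrial surface whose product restrains fatty acid oxidation, averaged 6.23 ± 0.40 in the HFM and 5.89 ± 0.39 in the HFS group. Its difference of 0.34 (standard error 0.18) had the smallest unadjusted p of the list, 0.0736 by limma, and an exact permutation p of 0.139.

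**Figure D2:**
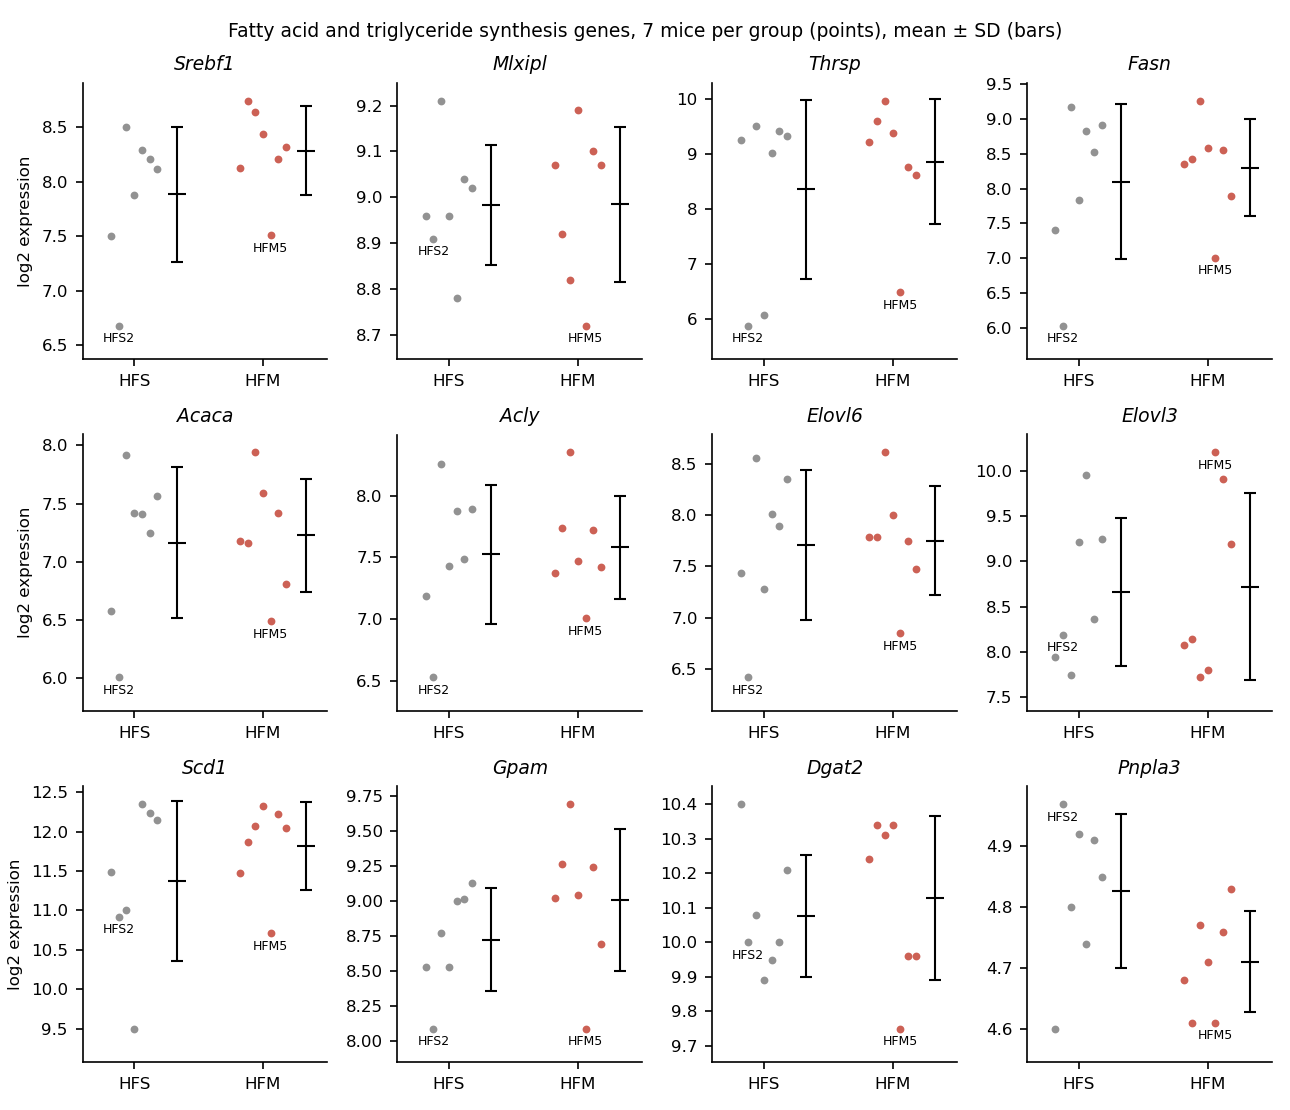
Log2 expression (y axis, one scale per gene) of 12 members in each mouse of the saline group HFS (grey points) and the MSC group HFM (red points), with mean ± SD as bars and n = 7 per group. The ranges overlap in each panel, and HFM5 and HFS2 are named because they stand at the low end for Fasn (7.01 and 6.03), Acaca, Acly, Elovl6 and Srebf1 while HFM5 is the highest HFM mouse for Elovl3 (10.20) and HFS2 the highest HFS mouse for Pnpla3 (4.97).

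The 5 elongases differed by 0.03 to 0.20. Elovl6, which extends palmitate to stearate, ran from 6.85 to 8.61 in HFM mice (median 7.79) and from 6.42 to 8.56 in HFS mice (median 7.89). HFM5 and HFS2 were again lowest, and the means of 7.75 ± 0.53 and 7.71 ± 0.73 differed by 0.05 (standard error 0.28, limma adjusted p = 0.985, exact permutation p = 0.90). Elovl3, an elongase of very long chains with a strong daily rhythm in liver, spread over 2.48 log2 units. HFM5 was its highest mouse, at 10.20, and HFM3 its lowest, at 7.72, the reverse of their places for Fasn. Its difference was 0.06 (standard error 0.41). Elovl1, which acts on very long saturated chains, differed by 0.20 (standard error 0.11, limma unadjusted p = 0.0863, exact permutation p = 0.128, adjusted p = 0.795). Elovl5 and Elovl2, elongases of polyunsaturated chains, differed by 0.20 (standard error 0.21) and 0.03 (standard error 0.11).

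Among the 4 desaturases, Scd1, the main liver enzyme that makes oleate from stearate, ran from 10.71 to 12.32 in HFM mice (median 12.04) and from 9.50 to 12.35 in HFS mice (median 11.49). The lowest HFS mouse was HFS4, at 9.50, with HFS2 at 10.92 and HFS3 at 11.00, so the order of the saline mice was not that of Fasn. The means were 11.81 ± 0.56 and 11.38 ± 1.01 (n = 7 each), a fold of 1.35 with an interval of 0.804 to 2.27 (limma adjusted p = 0.847, exact permutation p = 0.363). Scd2, the isoform of brain and of the fetal liver, had the lowest difference of the list, -0.15 (standard error 0.11, limma adjusted p = 0.833). Fads1 and Fads2, the desaturases of polyunsaturated chains, differed by 0.29 (standard error 0.25) and 0.24 (standard error 0.23).

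Of the acyl-CoA synthetases, Acsl5 differed by 0.07 (standard error 0.14). The probe set that Acsl3 shares with Utp14b averaged 5.47 ± 0.38 in the HFM and 5.34 ± 0.32 in the HFS group, a difference of 0.13 (standard error 0.16, limma adjusted p = 0.904) that cannot be assigned to either gene.

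The 8 members of glycerolipid assembly and remodelling differed by -0.12 to 0.28, with a median of 0.08. Gpam, the mitochondrial enzyme that adds the first acyl chain to glycerol phosphate, ran from 8.09 to 9.69 in HFM mice (median 9.04) and from 8.09 to 9.13 in HFS mice (median 8.77). Of the HFM mice 3 lay above every HFS mouse, and HFM5 stood at 8.09 like the lowest HFS mouse. The means were 9.0 ± 0.51 and 8.72 ± 0.36, a fold of 1.21 with an interval of 0.913 to 1.61 (limma adjusted p = 0.828, exact permutation p = 0.248). Agpat2 and Agpat3, which add the next chain, both differed by 0.08 (standard errors 0.08 and 0.07). Lpin1 and Lpin2, phosphatases that turn phosphatidate into diacylglycerol, differed by 0.14 (standard error 0.25) and 0.09 (standard error 0.18).

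Dgat2, which joins the last chain to diacylglycerol, ran from 9.75 to 10.34 in HFM mice (median 10.24) and from 9.89 to 10.40 in HFS mice (median 10.00). Its means were 10.13 ± 0.24 and 10.08 ± 0.18, a fold of 1.04 with an interval of 0.894 to 1.2 (limma adjusted p = 0.945, exact permutation p = 0.643). Dgat1, the other enzyme of this step, differed by 0.00 after rounding, and the interval of its fold was 0.905 to 1.10. Pnpla3, a lipid droplet protein whose human gene is linked to fatty liver, ran from 4.61 to 4.83 in HFM mice and from 4.60 to 4.97 in HFS mice. Of the 7 HFM values 1 exceeded the HFS mean, and the difference was -0.12 (standard error 0.07, limma unadjusted p = 0.0927, exact permutation p = 0.0664).

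The members differed from most of the array in how widely they varied between mice of the same group. Their median within-group SD was 0.40 on the log2 scale, against 0.15 over all tested probe sets and 0.17 over the 11705 with the higher mean signal, to which 29 of 29 members belonged. For 19 of 29 members the SD was above 0.24, the 90th percentile of all tested probe sets. The SD was 1.41 for Thrsp, 0.93 for Fasn and for Elovl3, and 0.82 for Scd1, and 99.9% of tested probe sets had a smaller SD than Fasn. Across the 14 mice Fasn spanned 3.23, Scd1 2.85 and Thrsp 4.09 log2 units. Other members were tight, with SDs of 0.15 for Mlxipl, 0.14 for Agpat2, 0.13 for Agpat3 and 0.11 for Dgat1 and Pnpla3. The confidence intervals of the group differences followed this spread, so a change of a given size was far less detectable for Thrsp or Fasn than for Dgat1.

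In each group 1 mouse stood at the low end for most members. HFM5 was the lowest of its group for 24 of 29 members, or 82.8%, while it was lowest for 15.6% of all tested probe sets, and its median deviation from the group mean over the members was -0.57. HFS2 was the lowest of its group for 18 members, or 62.1%, against 16.5% of all probe sets, with a median deviation of -0.48. At the other end HFM3 was the highest HFM mouse for 13 members, or 44.8%, against 23.9% of all probe sets, with a median deviation of 0.25. HFS7 lay above its group mean for 28 of 29 members, with a median deviation of 0.35. The members in which HFM5 stood above its group mean were Elovl3, Agpat2 and Dgat1.

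**Figure D3:**
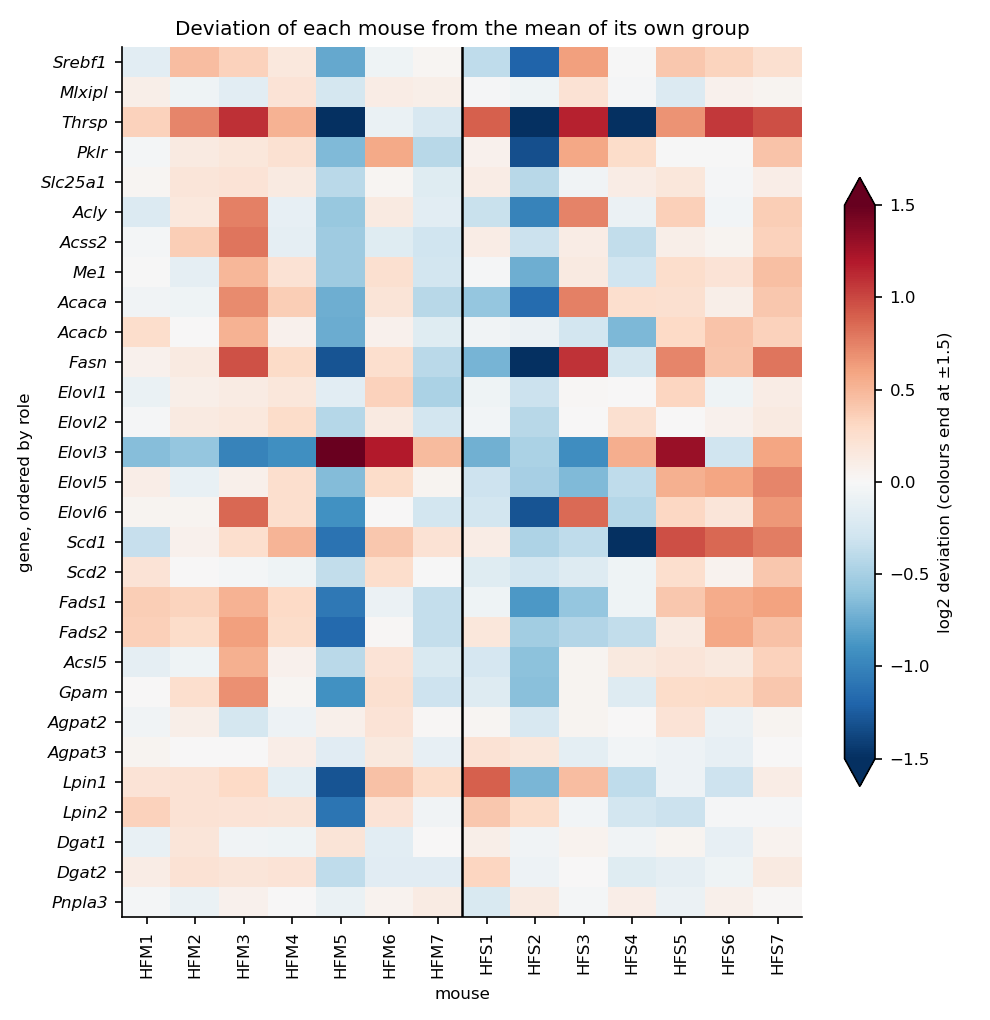
Deviation of each mouse (columns) from the mean of its own group for the 29 members (rows ordered by role), as colour from blue (below) to red (above) in log2 units, with colours ending at ±1.5. The columns of HFM5 and HFS2 are blue for most members (26 of 29 below the group mean in each), HFS7 is above the group mean for 28 of 29, and Elovl3 runs opposite to its neighbours in HFM5 and HFM3.

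Because of this, both mice were left out in turn and together, a choice made after the values had been seen. The mice were picked from the values of the members themselves. Leaving out HFM5, the lowest HFM mouse for 24 of 29 members, raises the HFM means of those members. Leaving out HFS2, lowest for 18 members, does the same to the HFS means. The counts and p values below describe how the results depend on these mice and are no test of the members. The shares over all probe sets were not selected in this way. Without HFM5, 7 of 29 members were higher in HFM mice at an unadjusted limma p under 0.05, where 5.4% of all tested probe sets were. Their log2 differences were then 0.53 for Srebf1, 0.39 for Acss2, 0.46 for Acacb, 0.47 for Fads1, 0.44 for Fads2, 0.43 for Gpam and 0.27 for Lpin2. By the exact permutation test 3 of the 7 were under 0.05, Acacb (p = 0.0274), Gpam (p = 0.0478) and Lpin2 (p = 0.0449), and the exact p was 0.0583 for Srebf1 and 0.104 for Fads1. Acacb also passed the filter of the methods, which 1.11% of all probe sets passed as higher. With limma 0 members passed an adjusted p of 0.05, as 0% of all probe sets did, the smallest adjusted p being 0.408 for Acacb. The median over the members was 0.18. Without HFS2, 0 members passed the unadjusted threshold, where 5.4% of all probe sets did, and 16 members were above 0 and 13 below, with a median of 0.04, while 51.3% of all probe sets were above 0. Among those that went below 0 without HFS2 were Fasn (-0.15), Acaca (-0.13), Acly (-0.11) and Elovl6 (-0.17).

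Without both mice, 20 members were above 0 and 9 below, with a median of 0.10, while 50.7% of all probe sets were above 0. Then 4 members, Srebf1 (0.33), Acacb (0.45), Gpam (0.33) and Lpin2 (0.32), were higher at an unadjusted limma p under 0.05, where 4.78% of all probe sets were. By the exact permutation test 2 of the 4 were under 0.05, Acacb (p = 0.0498) and Lpin2 (p = 0.039), while the exact p was 0.0887 for Srebf1 and 0.0758 for Gpam. Lpin2 also passed the filter of the methods, which 1.07% of all probe sets passed as higher. Again 0 members passed an adjusted p of 0.05 with limma, as 0% of all probe sets did, and the smallest was 0.464. Fasn itself was not among the members past the threshold in any of these 3 settings.

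Several members varied together from mouse to mouse. After each group mean was subtracted, the deviations of the 14 mice were correlated between Fasn and each of the 28 other members, and likewise for Srebf1 and Mlxipl, 81 relations in all with p values adjusted over them. With Fasn, 15 of 28 members correlated at an adjusted permutation p under 0.05, each positively, and 9 of 28 by Spearman's rho. The same correlations were not computed over all tested probe sets, so no share of the array stands beside these counts. Elovl6 followed Fasn most closely, with r = 0.97 and rho = 0.96 (permutation p = 2e-05 and 1e-05, the latter the smallest that 100000 permutations can give, adjusted p = 0.00054 and 0.00081), and r = 0.94 without HFM5 and HFS2, the mice farthest from the median of Fasn. Acaca had r = 0.95 and rho = 0.90 (permutation p = 1e-05 and 7e-05, adjusted p = 0.000405 and 0.00189), with r = 0.88 without those mice. Acly had r = 0.94 and rho = 0.93 (permutation p = 1e-05 and 4e-05, adjusted p = 0.000405 and 0.00162), with r = 0.89 without them.

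Srebf1 followed Fasn with r = 0.94 and rho = 0.84 (permutation p = 0.00012 and 0.00075, adjusted p = 0.00121 and 0.00759), and r = 0.79 without HFM5 and HFS2. Of the 15 members, 8 also had a permutation p under 0.05 once HFM5 and HFS2 were left out. These were the 4 already named and Acss2, Me1, Acsl5 and Gpam. The other 7 of the 15 did not pass without these mice. The correlation went from r = 0.65 to 0.52 for Elovl1 (permutation p = 0.0551 without the 2 mice), from 0.80 to 0.51 for Thrsp and from 0.85 to 0.49 for Pklr. It fell further for Elovl2 (0.75 to 0.32), Fads1 (0.70 to 0.31), Fads2 (0.62 to 0.30) and Slc25a1 (0.75 to 0.20).

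Other members of the pathway did not track Fasn past the threshold. Scd1 had r = 0.49 (rho = 0.57, permutation p = 0.131 and 0.0618, adjusted p = 0.272 and 0.188), Lpin1 had r = 0.51 that turned to -0.17 without HFM5 and HFS2, and Dgat2 had r = 0.32. Elovl3 had r = -0.15, Dgat1 -0.16 and Pnpla3 -0.05. A p that misses the threshold over 14 mice does not show that these genes vary independently of Fasn.

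**Figure D4:**
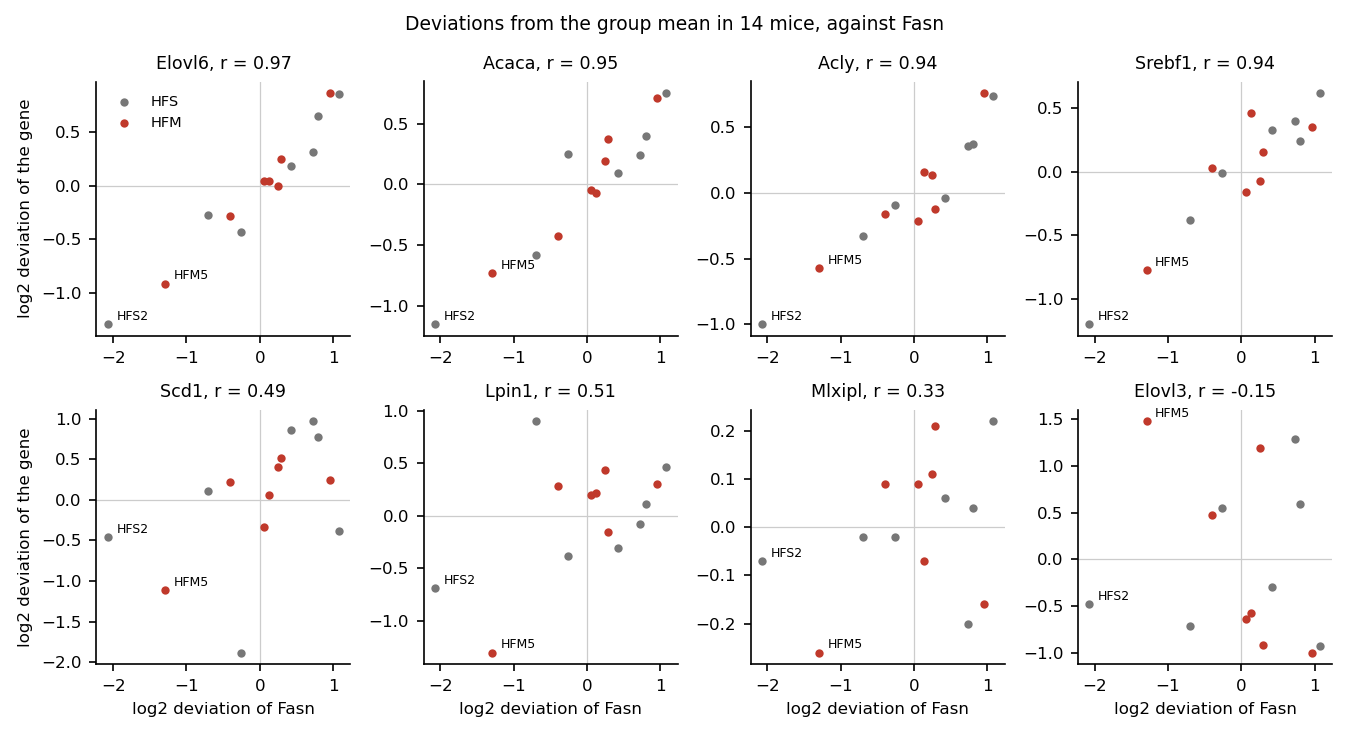
Deviation of 8 members from their group mean (y axes, log2) against that of Fasn (x axes, log2) in 14 mice, 7 HFS in grey and 7 HFM in red, with Pearson's r over all 14 above each panel. Elovl6, Acaca, Acly and Srebf1 (r = 0.94 to 0.97) rise with Fasn also among the mice other than HFM5 and HFS2, while Scd1, Lpin1, Mlxipl and Elovl3 (r = -0.15 to 0.51) scatter.

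The transcription factors themselves differed in this respect, although the difference between their correlations was not tested. Srebf1 correlated with 13 of the 28 other members at an adjusted permutation p under 0.05, each positively, and with 5 by Spearman's rho. Here too the share over all tested probe sets was not computed. For 4 of the 13, Acly, Acaca, Fasn and Elovl6, the permutation p was also under 0.05 without HFM5 and HFS2. With Scd1, a textbook target of SREBP, Srebf1 had r = 0.43 (rho = 0.44, permutation p = 0.189 and 0.156, adjusted p = 0.347 and 0.351). Mlxipl correlated with 0 of 28 at an adjusted p under 0.05 by either coefficient, its r with Fasn being 0.33 and with Pklr, a textbook target of ChREBP, 0.46 (rho = 0.53, permutation p = 0.0932 and 0.0619, adjusted p = 0.210 and 0.188). Within groups Mlxipl varied little, with an SD of 0.15, and RNA level does not measure the activity of either protein.

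Further genes of the pathway that are not on the list also differed little between the groups. Of 64 regulators, cofactor enzymes and other isoforms, 58 could be read. Of these 43 were above 0 and 15 below, where 51.4% of all tested probe sets were above 0, with a median of 0.04. At an unadjusted limma p under 0.05, 2 were higher and 1 lower, or 5.17% against 6.47% of all tested probe sets, and 0 passed an adjusted p of 0.05. The higher ones were Nr1h3 (0.17, standard error 0.08, p = 0.0496 by limma, exact permutation p = 0.0624), which encodes the liver X receptor that turns on Srebf1, and Oxsm (0.22, standard error 0.07, p = 0.00664 by limma, exact permutation p = 0.0111), an enzyme of mitochondrial fatty acid synthesis. The lower one was Hacd1 (-0.27, standard error 0.12, p = 0.0346 by limma, exact permutation p = 0.0693), a dehydratase of chain elongation. Their median deviation was -0.12 in HFM5 and 0.00 in HFS2, but single genes went both ways in these mice. HFM5 was the lowest of its group for 22 of the 58 genes, or 37.9% against 15.6% of all tested probe sets, and HFS2 for 17, or 29.3% against 16.5%. In HFM5 the deviations ran from -1.43 to 0.57, and in HFS2 from -1.16 to 0.46. Insig1, whose product holds SREBP in the endoplasmic reticulum and which is itself a target of SREBP, was the gene with the lowest deviation in both mice and stood at 1.05 in HFM3, so it shared the order of the members at the ends. Tkt and Pgd, enzymes of the pentose phosphate pathway, deviated by -0.81 and -0.38 in HFM5 and by -0.50 and -0.53 in HFS2. Mid1ip1, a relative of Thrsp that promotes the polymerisation of acetyl-CoA carboxylase, deviated by -0.31 in HFM5 and -0.66 in HFS2. These 4 genes were chosen after their values were seen.

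By median deviation, the sister pathway of cholesterol synthesis had the same lowest and highest mice in each group as the members. Of its 23 listed genes 18 could be read. Of these 17 were above 0 and 1 below, where 51.4% of all tested probe sets were above 0, with a median of 0.16 and a range of -0.03 to 0.54. At an unadjusted limma p under 0.05, 0 passed, where 6.47% of all tested probe sets did. The count above 0 was not repeated with mice left out. The median deviation of these genes was -0.66 in HFM5, -0.54 in HFS2 and 0.90 in HFM3, so the same mice stood at the ends as for the members. Between the ends, members and cholesterol genes had opposite signs in HFM4 (0.17 and -0.17), HFM6 (0.15 and -0.19), HFS1 (-0.04 and 0.19) and HFS3 (0.04 and -0.10). In the remaining mice the signs were the same. The relation between the lists was not tested. Genes known to rise in the fasted liver had a median deviation of -0.23 in HFM5 and 0.16 in HFS2, but single genes went both ways. In HFM5 they ran from -0.72 (Fgf21) to 1.15 (G6pc), and in HFS2 from -0.65 (G6pc) to 0.73 (Cyp4a14). Between the groups 3 of 15 fasting genes were lower in HFM mice at an unadjusted limma p under 0.05, namely G6pc of glucose release (-0.79), the thioesterase gene Acot1 (-0.58) and the fatty acid hydroxylase gene Cyp4a14 (-0.77), and 0 were higher, or 20% against 6.47% of all tested probe sets in either direction. Their exact permutation p was 0.0326, 0.0291 and 0.0245, and their adjusted p by limma 0.714. These 3 genes passed the filter of the methods, which 0.696% of all tested probe sets passed. The study had reported Acot1 and Cyp4a14 as lower from these same arrays, and Acot1 as lower by qRT-PCR as well. The list was chosen with earlier results known. The share of 20% is therefore not independent support.

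**Figure D5:**
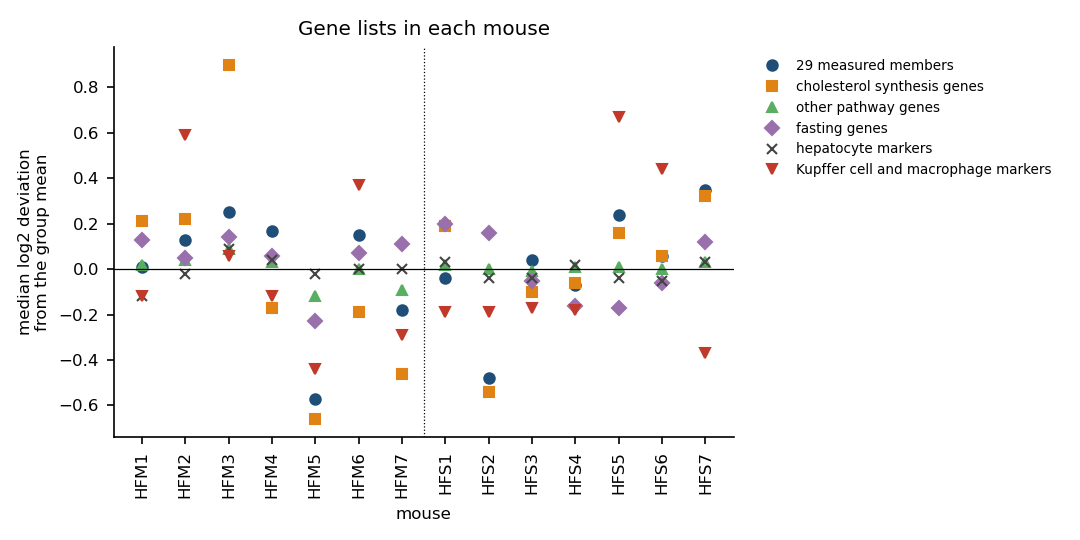
Median deviation from the group mean (y axis, log2) over the genes of 6 lists in each of the 14 mice (x axis), 7 HFM on the left of the dotted line and 7 HFS on the right. The 29 members (circles) and the cholesterol synthesis genes (squares) are both lowest in HFM5 (-0.57 and -0.66) and HFS2 (-0.48 and -0.54), while the hepatocyte markers (crosses) stay between -0.12 and 0.09.

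Markers of other cell types were set beside these values. In the mice with low members, the median deviation of the hepatocyte markers was -0.02 (HFM5) and -0.04 (HFS2). Single hepatocyte markers ran from -0.37 (Apoa1) to 0.68 (Tat) in HFM5 and from -0.14 (Tdo2) to 0.40 (Cps1) in HFS2. The median deviation of 5 sinusoidal endothelium markers was -0.21 in each of these mice, the lowest of each group. That of 6 stellate cell markers was -0.35 in HFM5, the lowest of its group, and 0.07 in HFS2, and that of 5 neutrophil markers was -0.30 and 0.04. The 12 Kupffer cell and macrophage markers were all above 0, where 51.4% of all tested probe sets were, with a median difference of 0.30. At an unadjusted limma p under 0.05, 5 of 12 (Cd68, Cd5l, Marco, C1qb and Mpeg1) were higher in HFM mice, or 41.7% against 6.47% of all tested probe sets in either direction. By the exact permutation test 2 of these were under 0.05, Cd5l (p = 0.0472) and Mpeg1 (p = 0.0297), and 3 were not, Cd68 (p = 0.0763), Marco (p = 0.0624) and C1qb (p = 0.0711), and the smallest adjusted p of the 5 by limma was 0.714. Only Mpeg1 passed the filter of the methods, which 0.696% of all tested probe sets passed. The study had named Cd5l, Cd68 and Marco among its differing genes from these same arrays. The share of 41.7% is therefore not independent support. Over all 12 markers the mean level per mouse was 6.62 to 7.62 in the HFM group and 6.33 to 7.37 in the HFS group, and the median deviation was -0.44 in HFM5 and -0.19 in HFS2. The 5 of 6 adipocyte markers that could be read lay at a mean of 3.54 to 3.81 in HFM mice and 3.70 to 3.84 in HFS mice, with 0 past the threshold. The part of macrophages, endothelium and stellate cells in the values of the members was not tested.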

How the data were processed

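Each of 14 Affymetrix mouse gene arrays measured the liver RNA of 1 mouse. The authors summarised and normalised the intensities in Expression Console and deposited log2 expression per probe set. RMA is the algorithm according to the labels and PLIER according to the methods, which can change the spread of dim probe sets. Expression Console version, annotation release and genome build: not given in the sources used here. Their own tests ran in Partek (p under 0.01, Bonferroni, 1.2-fold). No value column stayed unused (0), and groups came from the labels.

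From the deposited log2 values, the 23410 probe sets that carry a gene symbol were fitted in R 4.3.3 with limma 3.58.1 (lmFit, eBayes, no covariate), and 12146 without a symbol were left out. The Benjamini-Hochberg adjustment covered these 23410. No filter on signal was set, and the number of arrays limits the precision. Exact permutation tests are two-sided over 3432 assignments of 7 and 7 mice, or 1716 with 1 mouse left out, with 0.000583 the smallest p they can give, and over 924 with 2 left out, where the smallest is 0.00216. Confidence intervals are 95% intervals from limma. Correlations used deviations from the group mean, with 100000 permutations within groups. The labels number separate mice, so p values measure the spread between mice.

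The members and gene lists were chosen with earlier results of these data known. Values by mouse are given for Srebf1, Mlxipl, Fasn, Acaca, Acly, Scd1, Elovl6, Gpam and Dgat2 by rule, and for Thrsp, Elovl3 and Pnpla3 because of their values. From other lists, genes past an unadjusted p of 0.05 are named. Marker lists of cholangiocytes, stellate cells, sinusoidal endothelium, neutrophils, and T and B cells were also read. At an unadjusted limma p under 0.05, 1 of 6 stellate cell genes was higher (Pdgfrb), or 16.7%. Of 4 T and B cell genes 1 was higher (Cd3g) and 1 lower (Cd79a), or 50%, and no other gene of these lists passed. Over all tested probe sets 6.47% passed in either direction. The adjusted p by limma was 0.714 for Cd3g and 0.768 for Pdgfrb and Cd79a. Group means of Cd3g and Cd79a were low, 2.90 to 3.42, below the array medians. Alternatives were quantile normalization, median centring, the replicate block, the probe sets with the higher mean signal, array weights, a trended and robust prior, an unmoderated test, all probe sets, averaging a gene's probe sets, and each mouse left out. The scripts were tested on simulated data. Identifiers of 21698 of the 21789 probe sets with 1 symbol were in the RefSeq table, and 0 symbols changed.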

Additional observations from a re-analysis of the deposited data

Results flagged for a closer look

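In 7 of the 58 groups of 7 mice formed by the 29 members, 1 mouse lay far from the others of its group by Dixon's ratio, where chance gives about 1 in 20 groups for normally distributed values. The groups are not independent because the members vary together. The ratio was not computed over all tested probe sets, so no share of the array stands beside this count. HFM5 was the low mouse in 4 of them. It stood at 6.49 for Thrsp while the other HFM mice ran from 8.62 to 9.96, at 9.90 for Elovl5 (others 10.45 to 10.84), at 5.33 for Lpin1 (others 6.47 to 7.06) and at 7.34 for Lpin2 (others 8.39 to 8.77). HFS2 was the low mouse in the other 3, at 7.54 for Pklr (other HFS mice 8.86 to 9.45), at 8.43 for Slc25a1 (others 8.79 to 9.01) and at 9.60 for Elovl2 (others 9.97 to 10.26).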

How the results depend on the processing

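Under 24 alternatives 0 members passed an adjusted p of 0.05, and of 696 member values 619 kept their direction and their side of an unadjusted p of 0.05, 19 newly passed it and 58, in 11 members, changed sign (smallest limma p 0.482, largest size 0.27). The cause of these changes was not tested. Sign changes under quantile normalization were Mlxipl -0.03, Me1 0.00 and Elovl2 -0.01, under median centring Dgat1 0.02, with array weights Acly -0.04 and Elovl6 -0.01, after averaging each gene's probe sets Acaca -0.10, and without HFM5 and HFS2 Acly, Me1 and Acaca -0.01, Elovl3 -0.27 and Elovl6 -0.02. With 1 mouse left out, differences ran from -0.13 to 0.19 for Acaca, -0.11 to 0.18 for Acly, -0.03 to 0.14 for Acsl5, -0.04 to 0.02 for Dgat1, -0.04 to 0.10 for Elovl2, -0.19 to 0.27 for Elovl3, -0.17 to 0.20 for Elovl6, -0.15 to 0.41 for Fasn, -0.10 to 0.11 for Me1, -0.03 to 0.04 for Mlxipl and -0.25 to 0.08 for Pklr. Counts of members past an unadjusted p of 0.05 then ran from 0 to 7 higher and 0 to 1 lower, and 0 to 1 passed the filter of the methods as higher. Besides the 7 without HFM5, these were Elovl1 without HFM7 or HFS5, Srebf1 without HFS3, Acacb without HFS6 or HFS7, Acss2 without HFS7 and, lower, Pnpla3 without HFS1. Array weights gave 1 member higher, Elovl1 (0.24), and leaving out HFM5 and HFS2 gave 4, with 1 past the filter. Of the other pathway genes, 1 was higher, against 2, with quantile normalization, the brighter probe sets, the trended prior, the unmoderated test, all probe sets and the replicate block, and 5 without HFM5 and HFS2. Lower were 2 with quantile normalization and 0 with array weights, the unmoderated test and averaged probe sets, against 1. Without HFM5 and HFS2, 2 passed the filter as higher and 1 as lower. With 1 mouse left out, 1 to 6 were higher and 0 to 2 lower, and 0 to 1 passed the filter each way. Over all tested probe sets, median centring gave 1229 higher and 428 lower calls at p under 0.05 (74.2% higher, against 836, 678 and 55.2%) and 37 lower by the filter. The brighter probe sets gave 532, 217 and 22 (71.0% higher), the unmoderated test 48 higher and 27 lower by the filter, all probe sets 100 lower by it, and leaving out HFM5 and HFS2 250 and 103. With 1 mouse left out, 583 to 1265 were higher and 499 to 1230 lower at p under 0.05, 57 to 261 higher and 35 to 142 lower by the filter, and 0 to 1 passed an adjusted p of 0.05 (1 without HFS6). The mouse numbers of the labels did not pair the groups, with correlations of deviations from -0.20 to 0.14 over 7 pairs and 0 of 7 HFM mice closest to their own number. With the replicate block 0 members passed, 25 of 29 were above 0 and 733 and 591 of all probe sets were higher and lower.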
